A study of Mus musculus with 2 samples.

Results

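The D-type cyclins, the kinases they bind and the inhibitors of these kinases were examined in mouse bone marrow cells sorted as Lin-c-kit+Sca1+. The 10 genes were chosen by name for their role in the entry of stem and progenitor cells into the cycle, and each was read through all probe sets annotated to it. Of these genes 9 had a probe set, 14 in all, among 10833 probe sets that named 1 gene and the 8251 genes those covered. Cdk6, the partner kinase of the D cyclins besides Cdk4, was not analysed here. The study holds 2 samples of this fraction, which lacks lineage antigens and carries the receptor Kit and the antigen Sca-1, and holds the haematopoietic stem cells along with multipotent progenitors. Both samples form 1 group, numbered sample 1 and sample 2 as in their titles, with no treatment, genotype or time named for either. Strain and age are not given in the sources used here, nor is it stated whether separate animals or sorts were used. The RNA of both went through 2 rounds of amplification. With 2 samples of 1 group, every difference below is also the spread between these samples, which may be technical, and no test of any gene is possible.

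A cell leaves G1 when a D cyclin, made in response to growth signals, binds Cdk4 or Cdk6 and the complex phosphorylates the retinoblastoma protein, which then releases E2F factors. Inhibitors of the INK4 family, such as the product of Cdkn2c, bind the kinases and keep the cyclin out. Those of the CIP/KIP family, encoded by Cdkn1a, Cdkn1b and Cdkn1c, bind complexes of cyclin and kinase. Haematopoietic stem cells are mostly quiescent, and several of these inhibitors are known for holding them there, while multipotent progenitors of the same surface phenotype cycle more often.

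Signals are array intensities in arbitrary units, quantile-normalized so that both arrays share 1 distribution. A signal was read as measured if it was above the control level of its sample, the 90th percentile of 15 probe sets for bacterial genes. This level was 12.1 in sample 1 and 8.92 in sample 2. For differences on the log2 scale, signals under a floor of 20 were set to 20, so that a fold against a floored signal is a lower bound. Intensities of different probe sets depend on their probes as well as on the RNA, so levels are compared between samples and not between genes. A summed signal adds all measured genes of a list, above the control level or not, so its strongest probe sets weigh most.

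Of the 9 genes, 7 (77.8%) passed the control level of both samples through at least 1 probe set, beside 57.0% of all 8251 genes. In sample 1 alone 7 passed (64.3% of all genes did) and in sample 2 alone all 9 (71.0%), and 5 passed with every probe set of theirs in both (44.9%). They were the cyclin genes Ccnd1, Ccnd2 and Ccnd3, the kinase gene Cdk4 and the inhibitor genes Cdkn1a, Cdkn1c and Cdkn2c. Cdkn1b and Rb1 were not. Only Ccnd3 and Cdk4 also passed a stricter level, the 90th percentile of 37 probe sets for genes of other organs (51.2 in sample 1 and 56.0 in sample 2), which 15.6% of all genes passed. The other 5 genes lay below it in at least 1 sample.

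**Figure D1:**
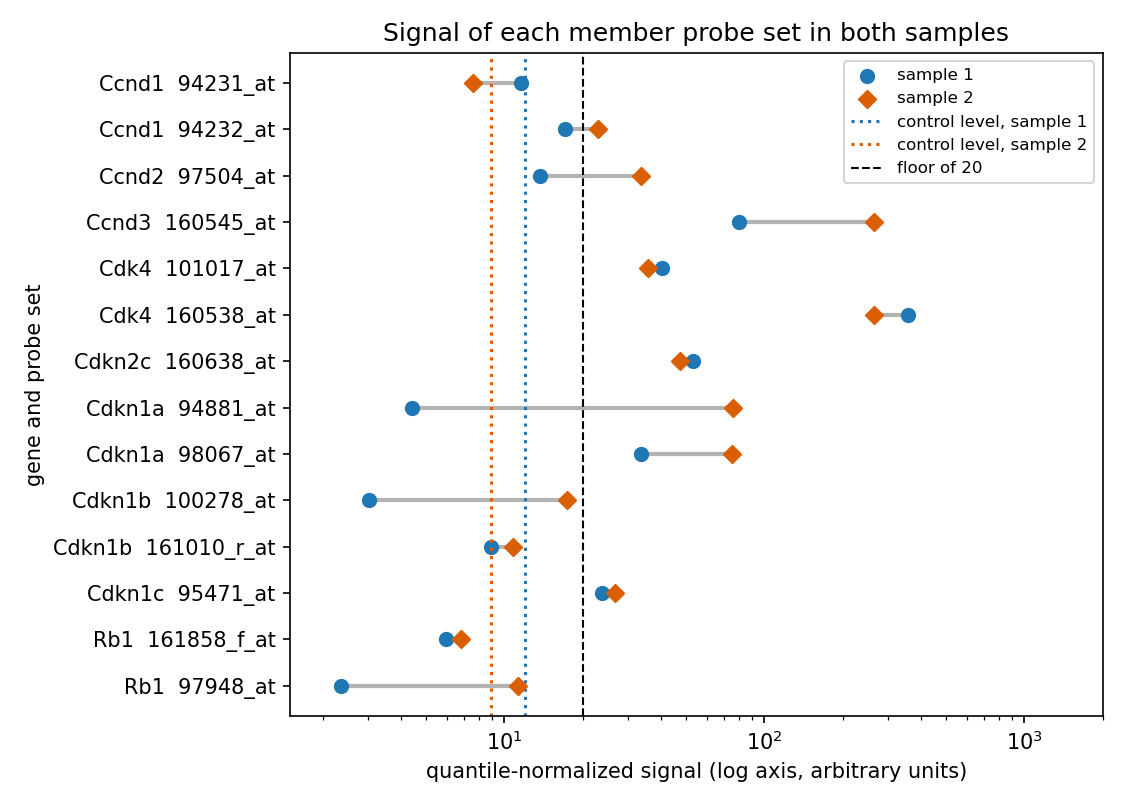
Quantile-normalized signal (log axis) of the 14 probe sets of 9 genes in sample 1 (circles) and sample 2 (diamonds), with the control level of each sample (dotted) and the floor of 20 (dashed). Ccnd3 and the stronger probe set of Cdk4 are well to the right of these lines in both samples, and both probe sets of Rb1 lie below the control level of sample 1.

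Among the D cyclins, Ccnd3 was the one with both signals above the floor. Its single probe set (160545_at) gave 79.6 in sample 1 and 264 in sample 2. The second value is 3.31-fold the first, and the log2 signals averaged 7.18 ± 1.22 (SD, n = 2). Cyclin D3 is the D cyclin most tied to lymphoid development, and it also acts in other blood lineages.

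Ccnd2, the D cyclin gene often induced by cytokines and growth factors in blood cells, had 13.7 in sample 1 and 33.5 in sample 2. As the first lies under the floor, sample 2 was at least 1.67-fold higher. Without the floor the log2 difference was 1.29 in place of 0.74, so that this gene is on either side of 2-fold depending on how weak signals are treated.

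Ccnd1, the D cyclin gene best known from epithelial and mesenchymal cells, was near the background. One of its probe sets (94232_at) gave 17.2 in sample 1 and 22.9 in sample 2, and the other (94231_at) gave 11.6 and 7.61, below the control level in both. The probe sets differed in direction, and no order of the samples can be read for this gene.

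Cdk4, which encodes the catalytic partner of the D cyclins, was the kinase gene measured. Its probe set 160538_at gave 358 in sample 1 and 264 in sample 2. Sample 1 was 1.35-fold higher, and the log2 signals averaged 8.26 ± 0.31 (SD, n = 2). The other (101017_at) had 40.6 and 35.6, 1.14-fold higher in sample 1. Both probe sets thus lay in the same order, opposite to that of Ccnd3. Their SDs (0.31 and 0.13, log2) were smaller than 0.58, the SD pooled over the 6118 probe sets that passed the control level. That pooled value includes floored signals, which lower it.

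The INK4 gene Cdkn2c, which encodes p18 and is known for restraining the self-renewal of haematopoietic stem cells, gave 53.4 in sample 1 and 47.4 in sample 2. These signals were 1.13-fold apart and averaged 5.65 ± 0.12 on the log2 scale (SD, n = 2). Against the stricter level, the signal of sample 1 was just above it and that of sample 2 just below.

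Cdkn1a, the gene of p21 and a target of p53, was the inhibitor gene that differed by 2-fold or more. The probe set 98067_at gave 33.4 in sample 1 and 75.3 in sample 2. Sample 2 was 2.25-fold higher, and the log2 signals averaged 5.65 ± 0.83 (SD, n = 2). The other probe set (94881_at) gave 4.41 in sample 1, below the control level, and 76.0 in sample 2, at least 3.80-fold apart. Both probe sets were higher in sample 2. They gave almost the same signal there and disagreed on whether the gene was measured in sample 1.

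Cdkn1c, the gene of p57, which is known for its high level in quiescent haematopoietic stem cells, gave 23.8 in sample 1 and 26.7 in sample 2. The signals were 1.12-fold apart, averaged 4.65 ± 0.12 on the log2 scale (SD, n = 2), and lay just above the floor in both samples.

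Cdkn1b, the gene of p27, was above the control level in sample 2 only. Its probe set 100278_at had 3.01 in sample 1 and 17.4 in sample 2, and 161010_r_at had 8.88 and 10.8. All 4 signals were under the floor, so no fold is given.

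The last gene of the pathway, Rb1, encodes the substrate that Cdk4 inactivates. Its probe set 97948_at had 2.36 in sample 1 and 11.3 in sample 2, above the control level in sample 2 alone, and 161858_f_at had 5.96 and 6.84, below it in both. Again all 4 signals were under the floor. A weak probe set and a low level of RNA cannot be told apart from these intensities.

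The comparison of the samples rests on the 7 genes above the control level. By the floored signal of 1 probe set each, 5 had the larger value in sample 2 and 2 (Cdk4 and Cdkn2c) in sample 1. The 5 include Ccnd1, whose probe sets differed in direction, and Cdkn1c, next to the floor, so this count orders the samples only loosely. By the same measure, among the 4707 genes of the array above that level, 43.5% were higher in sample 2 and 47.2% in sample 1. The median log2 difference, sample 2 minus sample 1, was 0.20 over the 7 genes and 0 over all 4707. The first of these is the floored difference of Ccnd1 itself, the middle one of the 7, and so describes no shared shift. Ccnd3 and Cdkn1a were the 2 genes of the 7 that were 2-fold or more apart, both higher in sample 2. Of all genes above the control level 20.7% were 2-fold or more apart, 9.62% higher in sample 2 and 11.0% higher in sample 1. With 7 genes a count of 2 is near this background.

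Differences of 2-fold or more, in either direction, were frequent at the same signal strength. No share was computed at the larger fold of Ccnd3 (3.31) or for sample 2 alone being higher. Among probe sets with a mean signal of 100 to 200, the range that holds Ccnd3, 30.7% of 609 were 2-fold or more apart. In the range of 50 to 100, which holds the stronger probe set of Cdkn1a, it was 28.5% of 1283, and in the range of 200 to 500, which holds Cdk4, 35.1% of 262. Cdk4 was thus among the majority of strong probe sets that kept within 2-fold.

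**Figure D2:**
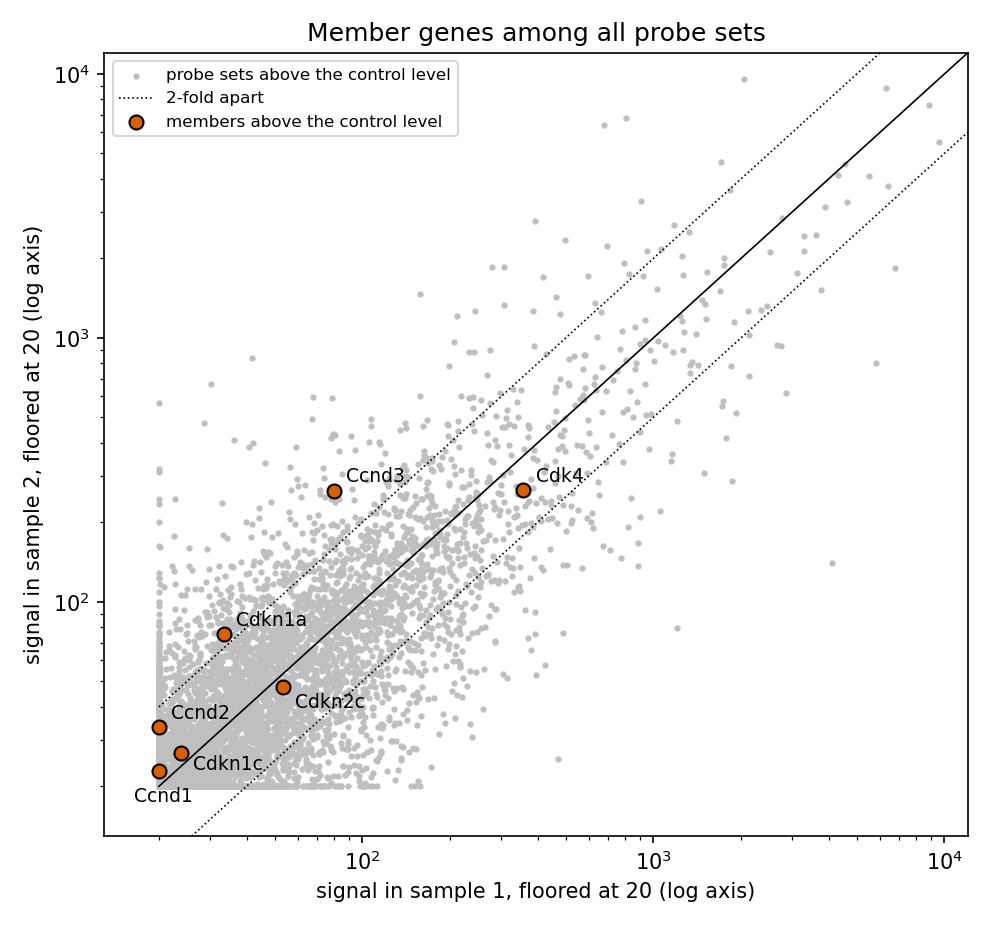
Signal in sample 1 against signal in sample 2, both floored at 20 (log axes), for the 6118 probe sets above the control level (grey) and the 7 genes above it (orange, 1 probe set each), with lines of equality (solid) and of 2-fold differences (dotted). Ccnd3 (79.6 and 264) and Cdkn1a (33.4 and 75.3) lie past the upper 2-fold line, and the other 5 genes lie between the lines.

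Upstream sequence was available in RefSeq (GRCm38.p6) for 6 of the 10 genes, as 9 windows of 250 bases before to 50 after a transcript start. Each of the 3 stretches below holds the 250 bases before a start, on the plus strand and 5′ to 3′. They show the genes on which the comparison turns, Cdk4 as the strongly measured gene higher in sample 1, and Ccnd3 and Cdkn1a as those past 2-fold in sample 2. Capitals mark the E-box CACGTG, the site of Myc and related factors, and the GC box GGGCGG, the site of Sp and Kruppel-like factors, read on both strands (the GC box appears as CCGCCC where it lies on the other strand).
Cdk4, chr10:127063285-127063534: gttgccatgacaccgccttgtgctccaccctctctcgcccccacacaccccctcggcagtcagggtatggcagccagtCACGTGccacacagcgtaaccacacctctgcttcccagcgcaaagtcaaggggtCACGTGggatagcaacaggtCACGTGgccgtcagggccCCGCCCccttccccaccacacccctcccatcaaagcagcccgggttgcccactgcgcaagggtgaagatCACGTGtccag
Ccnd3, chr17:47593217-47593466: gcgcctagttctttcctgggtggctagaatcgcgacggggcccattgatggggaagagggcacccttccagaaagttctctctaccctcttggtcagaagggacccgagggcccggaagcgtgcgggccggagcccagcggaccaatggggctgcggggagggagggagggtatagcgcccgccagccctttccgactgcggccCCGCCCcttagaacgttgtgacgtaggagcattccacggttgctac
Cdkn1a, chr17:29093519-29093768: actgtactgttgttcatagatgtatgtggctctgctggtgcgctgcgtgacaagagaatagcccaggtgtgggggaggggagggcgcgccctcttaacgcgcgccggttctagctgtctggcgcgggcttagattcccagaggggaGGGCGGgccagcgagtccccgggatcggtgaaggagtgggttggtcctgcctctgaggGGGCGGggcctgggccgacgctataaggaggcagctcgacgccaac

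The Cdk4 stretch holds 4 E-boxes and 1 GC box, the Ccnd3 stretch 1 GC box and the Cdkn1a stretch 2. An E-box was found in 3 of the 9 windows, those of Cdk4 and Cdk6 and 1 of Cdkn2c, and in 7.15% of all 32851 windows of this length. A GC box was found in 6 of the 9 windows and in 35.7% of all. For Ccnd3 and Cdkn1a the windows shown are those of the later of 2 starts. The earlier Cdkn1a window held 0 matches to either motif, and the earlier Ccnd3 window 2 GC boxes. The cAMP response element TGACGTCA, the AP-1 site TGANTCA and the E2F sites TTTCCCGC and TTTGGCGC, searched on both strands, were in 0 of the 9 windows, and in 1.79%, 7.81%, 1.07% and 0.514% of all. The p53 response element, as a pair of half-sites in tandem without a spacer, was likewise in 0 of the 9 windows and in 0.00913% of all. At shares this low 0 of 9 windows would be common for any genes, so these counts set the 9 windows apart in no way. Sites outside the windows, or with a spacer, were not searched. A match says only that these letters are present, and none was tested for binding. Myc itself, a known activator of Cdk4 named here after its values were seen, gave 14.0 in sample 1 against 18.1 in sample 2, both under the floor.

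Other genes of G1 to S control did not share a direction between the samples. Of 24 measured genes on this list, 15 (62.5%) were above the control level, beside 57.0% of all genes, with 8 higher in sample 2, 7 higher in sample 1 and a median log2 difference of 0.091. With the deposited scaling the median was -0.0078, and 7 were higher in sample 2 and 8 in sample 1. Not above the level were the INK4 genes Cdkn2a, Cdkn2b and Cdkn2d, the pocket protein genes Rbl1 and Rbl2, and Ccne2, Cdc25a, E2f3 and Fbxw7.

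The genes 2-fold or more apart stood at different steps of the pathway. Cks2, which encodes a small subunit of cyclin-dependent kinases, gave 78.0 in sample 1 against 419 in sample 2, a 5.37-fold difference. E2f8, a repressor of the E2F family, had 45.8 and 184, and 33.4 and 39.1 by its other probe set.

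Ccne1, the gene of the cyclin that acts after the D cyclins, went the other way with 65.1 in sample 1 against 23.0 in sample 2, a 2.83-fold difference. Tfdp1, the gene of the DNA-binding partner of E2F factors, had 209 and 98.4 by its strongest probe set, 119 and 46.5 by another, and 9.60 and 3.37 by the third. Cks1b, chosen after its values were seen, had 44.4 in sample 1 and 14.5 in sample 2, at least 2.22-fold higher in sample 1. Skp1, a subunit of the ubiquitin ligase that degrades the product of Cdkn1b, had 186 and 106, within 2-fold.

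Genes known as E2F targets in S phase, downstream of the D cyclins and Rb1, were mostly higher in sample 1, as Cdk4 was. Of 22 measured, 20 (90.9%) were above the control level, beside 57.0% of all genes. Of these, 14 had the larger signal in sample 1, 3 had it in sample 2, and 3 were under the floor in both. Among all genes above the level 47.2% were higher in sample 1 and 43.5% in sample 2. The median log2 difference of the 20 was -0.41 (-0.39 with median-centring, -0.53 with the deposited scaling). Of the 20, 4 were 2-fold or more apart, all higher in sample 1. As a share in either direction this was near the 20.7% of all genes above the level. In the direction of sample 1 alone the share of all those genes was lower, 11.0%. The replicative helicase genes Mcm3 (191 in sample 1 and 72.0 in sample 2), Mcm5 (250 and 104) and Mcm7 (153 and 27.7) were 2.65-, 2.41- and 5.52-fold apart. Tk1, the thymidine kinase gene, had 176 and 43.3, 4.06-fold apart, with 2.57 and 5.39 by another probe set. The clamp gene Pcna, with 403 and 208, was 1.94-fold apart. The D cyclin gene Ccnd3 and these genes thus lay in opposite orders between the samples.

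Of 20 measured factors and signals known to act on D cyclin or inhibitor genes, 14 (70.0%) were above the control level. The share over all genes was 57.0%. Of the 14, 8 had the larger signal in sample 2, 5 had it in sample 1, and 1 was under the floor in each, with a median of 0.23. The receptor gene Notch1, which can act upstream of Ccnd3 in lymphoid cells, gave 22.5 in sample 1 against 178 in sample 2, a 7.92-fold difference, and 11.3 and 37.3 by its other probe set. Bmi1, a polycomb gene that represses the Cdkn2a locus, had 53.4 and 25.7, 2.08-fold higher in sample 1. Smad2, a mediator of TGF-beta signals chosen after its values were seen, had 16.8 and 67.5, at least 3.37-fold higher in sample 2.

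The factors with the strongest signals on this list kept closer. The NF-kappaB gene Rela had 180 and 168, and Stat3, a cytokine signal transducer, 110 and 144. Stat5a, which acts upstream of Ccnd2 in cytokine signalling, had 106 and 144, though 62.8 and 158 by its other probe set.

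**Figure D3:**
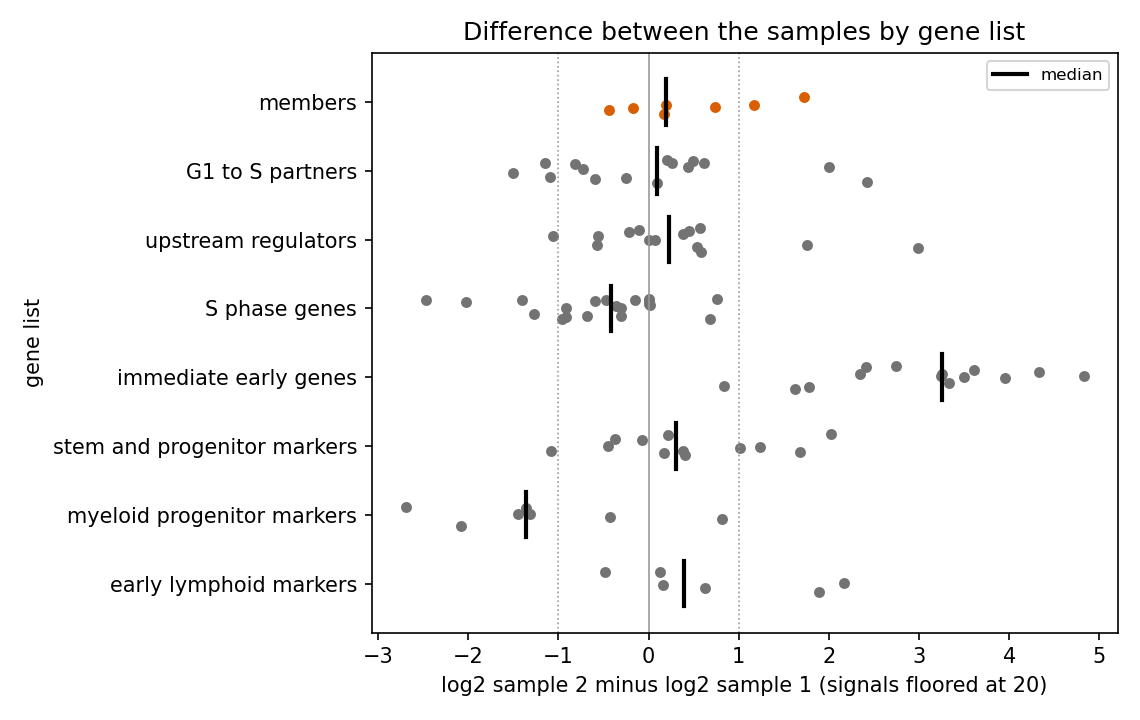
Log2 difference, sample 2 minus sample 1, of each gene above the control level (points) in 8 gene lists, with the median of each list (bars) and dotted lines at 2-fold. The D cyclin and inhibitor genes (orange) lie on both sides of 0, between -0.44 and 1.73, the S phase genes lie mostly to the left of 0, and all 14 immediate early genes lie to the right.

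Other properties of the samples moved in the same direction as Ccnd3 and Cdkn1a. Immediate early genes, transcribed within minutes of a stimulus, were above the control level in 14 of 18 cases (57.0% of all genes were). All 14 were higher in sample 2 (43.5% of all genes above the level were), by log2 differences of 0.83 to 4.82 with a median of 3.25. Jund had 279 and 1862 and Ier2 115 and 395, and the summed signal of the list was 839 in sample 1 and 7147 in sample 2. Both Cdkn1a and Ccnd3 were higher in the sample with more of these, and the part of this response in their signals was not tested.

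Markers of neighbouring progenitors differed too. For comparison, 57.0% of all genes were above the control level, and of those 43.5% were higher in sample 2 and 47.2% in sample 1. Of 8 myeloid progenitor genes 7 were above the control level and 6 of them higher in sample 1 (summed signal 3011 in sample 1 and 1061 in sample 2), with Mpo at 1862 and 288 and Prtn3 at 459 and 342. Of 8 early lymphoid genes 6 were above it and 5 of them higher in sample 2 (1189 and 1453), with Dntt at 83.3 and 374 and Ighm, by the strongest of its 16 probe sets, at 935 and 667. Of 15 stem and progenitor genes 12 were above it, 8 of them higher in sample 2 and 4 in sample 1 (2859 and 5746). Most of the rise in this sum came from Lyl1 (695 and 2224) and Eng (419 and 1700). Myb, chosen after its values were seen, had 490 and 232, 2.11-fold higher in sample 1. Kit, a marker of the sort, had 25.8 in sample 1 and 19.3 in sample 2. The second is under the floor, so no order is read. Ly6a, the Sca-1 gene, was not analysed here. Cells of different kinds and RNA per cell cannot be told apart in such samples, and the part of the mixture of progenitors in the Ccnd3, Cdk4 and Cdkn1a signals was not tested.

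Lineage antigens mark the cells that the sort should remove. The counts below stand beside the 57.0% of all genes that were above the control level. Of 10 such genes 2 were above the control level, Ms4a1 (28.2 and 43.5) and Ly6g (14.1 and 9.26), with summed signals of 75.6 and 92.5 over the 10. The other probe set of Ms4a1 had 1.94 and 22.9. Of 11 erythroid and megakaryocyte genes 7 were above it (1269 and 1311), 3 higher in sample 2 and 4 in sample 1. Car1 had 488 and 75.9, and Tfrc 303 and 172, though 1.40 and 1.20 by its other probe set. Hba-a1, an alpha globin gene chosen after its values were seen, gave 30.1 in sample 1 against 670 in sample 2, the reverse order. Of 10 stromal and endothelial genes 6 were above it (344 and 325), with Col1a2 at 174 and 192 and Col1a1 at 55.8 and 43.3. The other probe set of each was far weaker, 3.85 and 3.46 for Col1a2 and 1.40 and 12.9 for Col1a1. Of 26 genes of other organs 9 were (657 and 697), with Tnp1 at 93.7 and 244 and Crybb2 at 88.3 and 77.1. By their other probe sets Tnp1 had 0.970 and 1.58, and Crybb2 2.05 and 5.14. In each of these lists 0 measured genes had a signal of exactly 0.

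**Figure D4:**
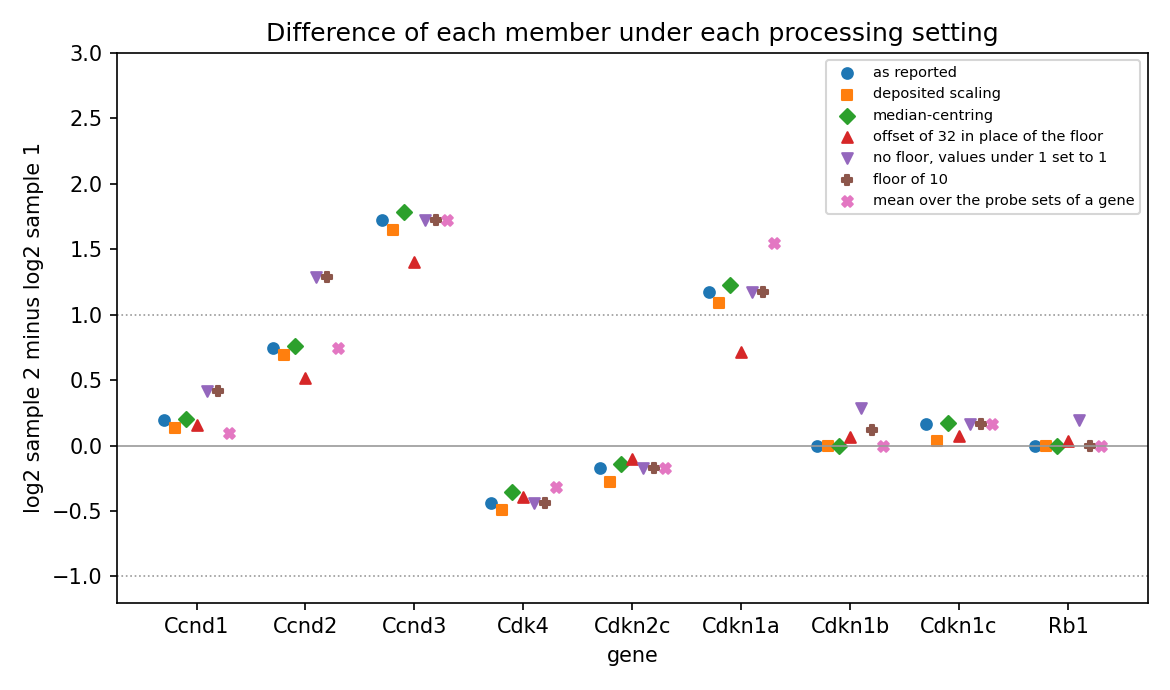
Log2 difference, sample 2 minus sample 1, of each of the 9 genes as reported and under 6 other settings, with dotted lines at 2-fold. Ccnd3 lies above 1 under each of them (1.40 to 1.79), Cdk4 and Cdkn2c lie below 0, Cdkn1a falls to 0.71 with an offset of 32, and Ccnd2 reaches 1.29 with a lower floor or none.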

How the data were processed

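Expression was measured on 2 Affymetrix mouse arrays, 1 for each sample, with 12488 probe sets. The deposited values are intensity values on a linear scale, made by software that the labels do not name. Both deposited columns had a mean of 53.94, and their medians were 15.9 and 14.45. RNA was amplified in 2 rounds, per the labels. On arrays the number of samples limits the precision.

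Intensities were quantile-normalized over both arrays and floored at 20 before log2, with Python 3.11.15, numpy 2.4.6 and pandas 2.3.3; the floor held 57.7% of values. The 66 control probe sets were left out of counts. Genes came from the platform's annotation: 10833 probe sets named 1 gene, 396 several (used for no gene) and 1193 none. Where a gene had several probe sets, the one strongest on average (log2) stood for it. The calculation was tested on simulated data, with less noise than the spread of these arrays and changes placed in strong probe sets only. That checks the code, and does not measure how reliable the differences reported here are.

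The genes and the 11 other lists were chosen with earlier results of these data known. Named genes are the 10 chosen ones. Of the pathway lists, the 3 strongest and all those 2-fold or more apart with both signals above the floor are named. Of the other lists, the 2 strongest are named. Kit, a marker of the sort, is named outside this rule, and genes chosen after their values were seen are marked so. Genes with a like pattern are not named, since 2 samples give 1 ratio per gene. Alternatives were other control levels, all probe sets required, each sample alone, the deposited and median-centred scaling, an offset of 32, floors of 10 and none, the mean over probe sets, and no filter.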

Additional observations from a re-analysis of the deposited data

How the results depend on the processing

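Over 54 values, 6 alternatives for each of the 9 genes, each difference kept within 1 SD (0.58, log2) of its reported value. Many of the 54 could not move, so this count says little about robustness. A lower floor or none leaves a gene unchanged when both signals exceed the reported floor, as for Ccnd3, Cdk4, Cdkn1a, Cdkn1c and Cdkn2c. The mean over probe sets leaves a gene with 1 probe set unchanged. Cdkn1b and Rb1, with all signals under the floor, kept their value under the deposited and median-centred scaling. The median over the genes above the control level ranged from 0.13 with the deposited scaling to 0.42 with a floor of 10 or none. With the level set by genes of other organs, 2 of the 9 genes and 6 of the 24 other G1 to S genes were above it, in place of 7 and 15. Requiring all probe sets of a gene gave 5 and 11. In 1 sample alone the counts ranged from 7 to 9 and from 16 to 19. Sample 1 alone gave 7 and sample 2 alone 9, with Cdkn1b and Rb1 added. The Rb1 signal of sample 2 (11.3) passed the lower level of that sample and would not pass that of sample 1. The Cdkn1b signal of sample 2 (17.4) exceeded both levels. The count 2-fold or more apart was 2 and became 1 with an offset of 32 (Ccnd3 alone) and 3 with a floor of 10 or none (Ccnd2 added). With 2 arrays, signals near the floor carry no order. No paired analysis was possible because the samples form 1 group.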
